A study of Mus musculus with 6 samples.

Results

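Genes of dendritic cell fate were followed in stem and progenitor cells of mouse bone marrow. There are 7 of them: the transcription factor genes Irf8, Spib, Batf3, Zbtb46 and Runx2, and the surface protein genes Siglech and Itgax. They were chosen by name, and every probe set (a group of short probes summarized as 1 value) that the probe table maps to one of these symbols alone was taken, however dim. This gave 10 probe sets for 6 of the 7 genes, out of 34945 probe sets and 18193 genes named by 1 symbol. Zbtb46 has 4 probe sets, Irf8 has 2, and Siglech, Batf3, Spib and Itgax have 1 each. No probe set carried the symbol Runx2 in the table used here, and Runx2 was not analysed here.

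The cells came from 3 adult mice (278, 279 and 281) of genotype Mx1Cre;Ergkd/+;R26Y on a mixed 129-B6 background. Every animal thus had 1 Erg knockdown allele, a Cre recombinase under the interferon-responsive Mx1 promoter, and a Rosa26 reporter of yellow fluorescent protein (YFP). LSK cells (lineage-negative, Sca-1+ and c-Kit+ marrow cells) were sorted from each animal by YFP. YFP+ cells are labelled Erg-restored, to the wild-type level, and YFP- cells are labelled Erg-knockdown, with a reduction of about 40%. Each population of each mouse was put on 1 Affymetrix mouse genome array, so there were 3 arrays per group. Because YFP defined the sort, Erg dose, Cre action and the reporter cannot be told apart.

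Dendritic cells take up antigen and present it to T cells, and they arise from marrow progenitors that need the cytokine receptor FLT3. IRF8 is needed for the type 1 conventional subset to form and shapes plasmacytoid cells, and BATF3 sustains Irf8 expression in that conventional subset. ZBTB46 marks the conventional lineage, and it is also made in endothelial cells and some erythroid progenitors. SPIB and RUNX2 act in plasmacytoid cells, whose surface carries Siglec-H, while Itgax encodes CD11c, the integrin chain by which dendritic cells are commonly sorted.

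Mean intensity per array was 1031 to 1071 and the median was 135 to 157. The mean log2 ratio of 3' over 5' control probe sets of Gapdh and beta-actin was 0.47 to 0.54 on 5 arrays and 0.71 on the restored-labelled array of mouse 279. Neither Erg probe set passed the test (log2 differences of 0.024 and -0.11, adjusted p = 0.977 and 0.889, limma), so the populations are named by their labels. Of 10 measured genes of the LSK gate and of stem cells, 7 were higher in knockdown-labelled cells. None had an unadjusted p under 0.05 (background 4.71% of all genes). After centring each array on its median 5 were higher, and after quantile normalization 7 were. The direction thus changed with centring and not with quantile normalization. With trend and robust eBayes settings 3 genes were under 0.05, all higher. After centring, and without mouse 278, 1 gene was, and it was lower. Summed intensity of the 10 genes was 42186 to 43894 on restored-labelled arrays and 44166 to 47362 on knockdown-labelled arrays, and none was at 0. In sorted pools, fewer cells of a type and less RNA per cell cannot be told apart.

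The comparison asked whether genes that set dendritic fate differ with the labelled Erg dose. The brightest Zbtb46 probe set was higher in knockdown-labelled cells in all 3 mice, by 1.58-fold in the fit, but it did not pass the adjusted threshold. Irf8 was lower in mice 278 and 281 and higher in mouse 279. Siglech, Batf3, Spib and Itgax each went in different directions in different mice. No direction is read for Batf3 and Spib, whose means lay in the range of control probe sets with no target added. All differences are given as knockdown-labelled minus restored-labelled in log2(intensity + 16), with the standard error (SE) of a limma model that holds the mouse as a block. The added 16 understates differences of dim probe sets.

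Over all 45037 probe sets that are no control, limma called 0 at an adjusted p under 0.05 (0.00%), while 2705 had an unadjusted p under 0.05 (6.01%, of which the higher side made 4.46%). Of the 10 member probe sets, 0 passed the adjusted threshold and 1 had an unadjusted p under 0.05, the brightest of Zbtb46. The difference was higher in 5 and lower in 5 of the 10, with a median of 0.029, against 0.029 over all probe sets. Without mouse 281, 8 of the 10 were higher with a median of 0.18, against 0.033 over all probe sets, and without mouse 279 the median was -0.0083. With array weights it was 0.22. In 2 of the 10 the difference had the same sign in all 3 mice, both times higher, against 28.9% of all probe sets in either direction and 18.6% on the higher side. The groups were free of overlap in 0 of the 10, against 12.2% of all probe sets. With 10 probe sets, 1 probe set moves each of these shares by 10 percentage points. Among the 2705 probe sets, 74.2% were higher in knockdown-labelled cells, a share that was 52.8% after quantile normalization and 36.8% after centring.

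**Figure D1:**
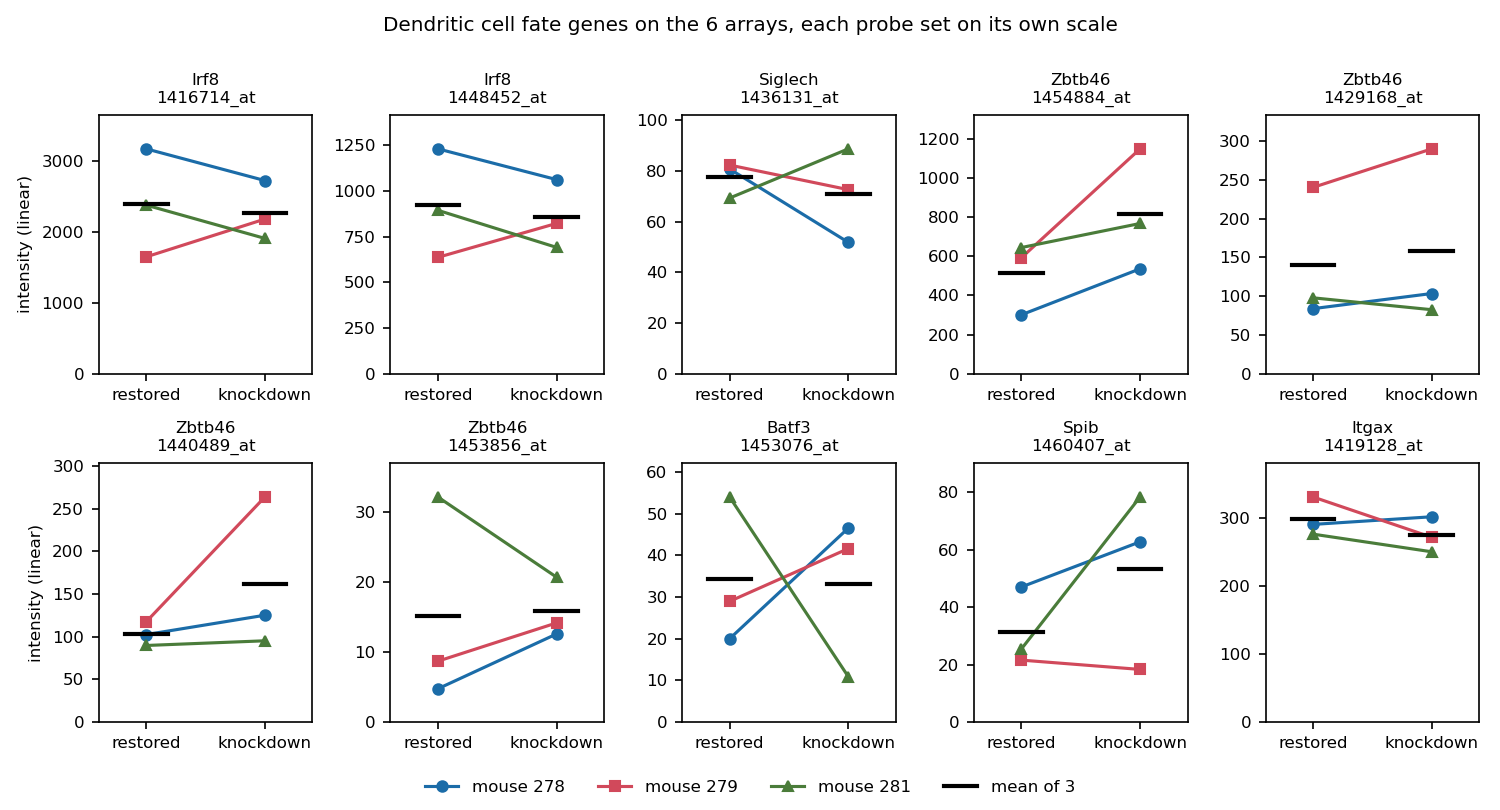
Linear intensity of each of the 10 member probe sets (vertical axes from 0, each on its own scale) in restored-labelled and knockdown-labelled cells. Lines join the arrays of 1 mouse and black bars are means of 3 arrays. The brightest Zbtb46 probe set runs upward in all 3 mice, while both Irf8 probe sets run down in mice 278 and 281 and up in mouse 279.

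Zbtb46 encodes a zinc finger repressor that is kept on in conventional dendritic cells and their committed precursors. The window of 250 bases before its start in the RefSeq promoter table (assembly GRCm38.p6, chr2:181424389-181424638, minus strand) is shown because Zbtb46 had the largest difference among the members. This start lies 68874 bases inside the gene's annotated span, so the window is not the upstream end of the gene. Capitals mark TGANTCA, the core bound by AP-1 dimers such as those that BATF3 forms with JUN proteins.
Zbtb46: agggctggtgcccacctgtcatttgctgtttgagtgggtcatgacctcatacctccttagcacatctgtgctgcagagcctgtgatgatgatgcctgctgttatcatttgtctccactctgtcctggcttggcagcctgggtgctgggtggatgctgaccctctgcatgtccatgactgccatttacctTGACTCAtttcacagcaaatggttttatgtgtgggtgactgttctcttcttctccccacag
The window holds 1 TGANTCA, with its first base at -61 from the start, and 0 copies of GGAA, the core that ETS factors such as ERG and SPIB bind. TGANTCA reads the same on both strands and was found in 6.75% of 32851 windows of this length, and GGAA on either strand in 93.4% of them. The motifs and the windows shown were chosen after matches had been seen. A match is a run of letters and was not tested as a binding site.

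The brightest Zbtb46 probe set, 1454884_at, had intensities of 301, 592 and 644 in restored-labelled cells of mice 278, 279 and 281, and of 535, 1147 and 767 in knockdown-labelled cells. Each knockdown-labelled value was above the restored-labelled value of its own mouse, but the groups overlapped, since knockdown-labelled cells of mouse 278 were below restored-labelled cells of both other mice. The differences were 0.80, 0.94 and 0.25 in the 3 mice. The fitted difference was 0.66 ± 0.18, with a 95% interval from 0.17 to 1.15 (unadjusted p = 0.0195, adjusted p = 0.817, limma). An exact two-sided permutation of signs gave p = 0.25, the smallest that 3 mice allow. With no mouse block the SE was 0.37 and the unadjusted p = 0.125 (limma). Leaving out mouse 278, 279 or 281 gave 0.59, 0.52 and 0.87, with unadjusted p = 0.0850, 0.0767 and 0.00860 (limma), so no member probe set was under 0.05 without mouse 278 or without mouse 279.

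The other 3 Zbtb46 probe sets gave smaller differences. Probe set 1440489_at gave 102, 117 and 89.7 in restored-labelled cells and 125, 264 and 95.2 in knockdown-labelled cells of mice 278, 279 and 281. It was higher in every mouse, and most of its difference of 0.47 ± 0.24 (adjusted p = 0.837, limma) came from mouse 279, at 1.07 against 0.25 and 0.073. Probe set 1429168_at gave 83.9, 240.1 and 97.8 against 103, 289.8 and 82.5. Here both arrays of mouse 279 were above the other 4, and the fitted difference was 0.10 ± 0.15. The dimmest, 1453856_at, gave 4.74, 8.69 and 32.2 against 12.6, 14.2 and 20.7. These values stood at the 1.55 to 20.9 percentiles of their arrays, so neither a size nor a direction is read from its difference of 0.12 ± 0.21.

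By the root mean square difference of centred log2 profiles over the 6 arrays, the genes most like the brightest Zbtb46 probe set were Abcb4, Spire1 and Reps2, at 0.18, 0.19 and 0.20, among 19329 probe sets at or above the median level. Abcb4, a phospholipid transporter gene, had 637, 1300 and 1187 in restored-labelled cells and 812, 1895 and 1429 in knockdown-labelled cells. As in Zbtb46, mouse 278 was lowest in each population and the knockdown-labelled array of mouse 279 was highest. With 6 arrays and this many candidates, close profiles are a description. Zbtb46 was the single member that met the search's conditions, a range over 1 log2 unit and a mean at or above the median at its brightest probe set.

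**Figure D2:**
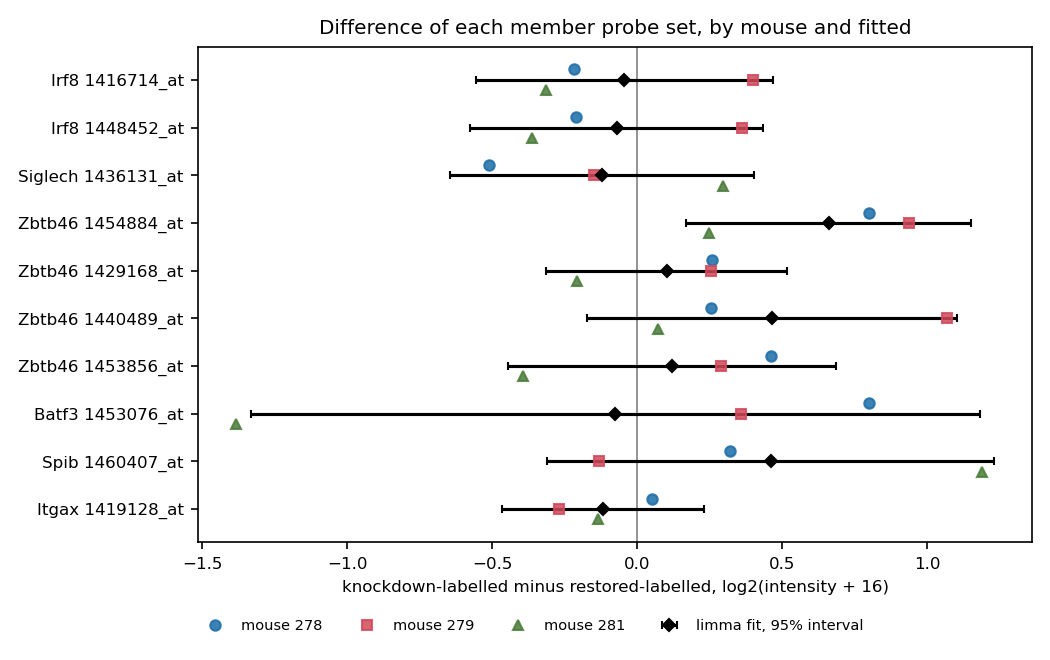
Difference of each member probe set (horizontal axis, knockdown-labelled minus restored-labelled, log2(intensity + 16)) in mice 278, 279 and 281 and in the limma fit with its 95% interval. The interval of the brightest Zbtb46 probe set, from 0.17 to 1.15, lies above 0, and the other 9 intervals include 0.

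Irf8 encodes an interferon regulatory factor that steers progenitors toward monocytes and dendritic cells and away from neutrophils. The window before its upstream start in the same table (GRCm38.p6, chr8:120736108-120736357, plus strand) is shown because the programs of several other members depend on IRF8. Capitals mark GGAA.
Irf8: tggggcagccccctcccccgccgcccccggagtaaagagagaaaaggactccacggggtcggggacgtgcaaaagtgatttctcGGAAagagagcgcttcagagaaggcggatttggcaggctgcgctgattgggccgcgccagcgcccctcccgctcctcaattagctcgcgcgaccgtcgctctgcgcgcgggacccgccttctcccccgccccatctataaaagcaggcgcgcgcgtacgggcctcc
It holds 1 GGAA, at -166 from the start, and 0 copies of TGANTCA. The ETS-IRF composite element, searched as GGAA and GAAA on one strand with any 2 bases between them, on both strands, was in 0 of the 8 windows of the 7 genes, against 2.3% of all windows. GGAA was in 7 of these 8 windows and TGANTCA in 2 of them, those of Zbtb46 and Itgax.

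The brighter Irf8 probe set, 1416714_at, had intensities of 3175, 1650 and 2381 in restored-labelled cells of mice 278, 279 and 281, and of 2727, 2183 and 1911 in knockdown-labelled cells. All 3 knockdown-labelled values lay within the span of the restored-labelled ones. The differences were -0.22, 0.40 and -0.31, so that mouse 279 stood opposite to the others. The fitted difference was -0.044 ± 0.19, with an interval from -0.55 to 0.47 (adjusted p = 0.973, limma). The second probe set, 1448452_at, gave 1232, 637 and 895 against 1063, 823 and 692. It kept the order of the 6 arrays seen at the first, with a difference of -0.071 ± 0.19 (adjusted p = 0.953, limma). The probe table gives both probe sets 1 source sequence, so they are not independent readings.

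The sign of Irf8 rested on single mice. Without mouse 279 the brighter probe set gave -0.27, and without mouse 278 or 281 it gave 0.043 and 0.091. Leaving out just the restored-labelled array of mouse 279, where Irf8 was lowest and the 3' over 5' ratio highest, gave -0.29 with no mouse term. Markers of monocytes and neutrophils had the same signs by mouse as Irf8. The median of 15 monocyte and macrophage genes was -0.17, 0.41 and -0.77 in mice 278, 279 and 281, and that of 13 neutrophil genes was -0.061, 2.06 and -0.47. Summed intensity of the first list was 19996 to 30985 on restored-labelled arrays and 21451 to 29244 on knockdown-labelled arrays. For the second it was 56043 to 96802 and 64948 to 100629, and no gene of either list was at 0. Their part in the Irf8 values was not tested.

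Spib and Batf3 encode the ETS and AP-1 family members among these genes. Spib gave 47.0, 21.5 and 25.4 in restored-labelled cells and 62.7, 18.3 and 78.4 in knockdown-labelled cells of mice 278, 279 and 281. It was higher in mice 278 and 281 and slightly lower in mouse 279. The difference was 0.46 ± 0.29 (adjusted p = 0.846, limma), and it was 0.096 without mouse 281. Batf3 gave 20.0, 29.0 and 54.1 against 46.6, 41.7 and 10.9. It was higher in mice 278 and 279 and lower in mouse 281, for a difference of -0.075 ± 0.47 (adjusted p = 0.981, limma) that was 0.58 without mouse 281. Their means, 42.2 for Spib and 33.7 for Batf3, lay below the median probe set mean of 149. Both were within 15.6 to 42.6, the range of 3 unspiked control probe sets (no target added) over the arrays. Neither a size nor a direction is therefore read from either gene.

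Of the surface protein genes, Siglech gave 80.7, 82.3 and 69.3 in restored-labelled cells and 51.8, 72.6 and 88.7 in knockdown-labelled cells. Its lowest and highest values were both in the knockdown-labelled group, and the difference of -0.12 ± 0.19 (adjusted p = 0.923, limma) was 0.073 without mouse 278. Its mean also lies below the median of 149. Itgax gave 290.3, 331 and 276 against 301, 271 and 250.0. It had the smallest range of the 10 probe sets over the 6 arrays, 0.38 log2 units, and its difference was -0.12 ± 0.13 with an interval from -0.47 to 0.23 (adjusted p = 0.893, limma). Itgb2, which encodes the integrin chain that pairs with CD11c, read 1899 ± 197 and 1636 ± 182 in the 2 groups (SD, n = 3 arrays each), a difference of -0.21 ± 0.14.

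Other regulators of dendritic cell development were taken at the brightest probe set of each gene. Of 37 listed genes 35 had a probe set. Of these 22 were higher and 13 lower in knockdown-labelled cells, and 0 passed the adjusted threshold (limma; 0.00% of all genes). At unadjusted p under 0.05 there were 2 higher and 0 lower, against 3.07% of all genes on the higher and 1.64% on the lower side. The same sign in all 3 mice was seen in 16 of 35 on the higher side (background 17.9%) and in 2 on the lower side (background 11.9%), against 29.8% of all genes in either direction. The median difference was 0.069, against 0.0099 over all genes. Centring each array moved the median of all probe sets to -0.078, and then 14 of 35 regulators were higher with a median of -0.038. Quantile normalization moved the median of all probe sets to -0.011 and left 22 of 35 regulators higher, with a median of 0.056. The direction of this list thus changed with centring and not with quantile normalization. Its median was 0.037 without mouse 279.

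The 2 genes were Irf4 and Ikzf3. Irf4 encodes the interferon regulatory factor that serves type 2 conventional dendritic cells, plasma cells and activated B cells, and it partners with PU.1 and SPIB as IRF8 does. Irf4 gave 78.1, 71.6 and 106 in restored-labelled cells and 788, 744 and 213 in knockdown-labelled cells. The groups did not overlap, as in 13.3% of all genes and 8.45% on the higher side, and the difference was 2.37 ± 0.51 (unadjusted p = 0.00799, adjusted p = 0.817, limma). The second, dimmer Irf4 probe set gave a difference of 0.17 ± 0.26. Ikzf3, the gene of the lymphoid zinc finger factor Aiolos, gave 99.5, 113 and 120.2 against 187, 231 and 142, a difference of 0.66 ± 0.19 (adjusted p = 0.817, limma). Its other 2 probe sets gave 0.16 and -0.38.

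Regulators upstream of the members were picked for their roles, after their values were seen. Flt3, the receptor gene of dendritic progenitors, read 3664 ± 784 and 4376 ± 374 in the 2 groups (SD, n = 3 arrays each), a difference of 0.27 ± 0.14 that was positive in all 3 mice. Tcf4, the E protein gene that drives plasmacytoid fate, differed by 0.14 ± 0.11. Id2, whose product blocks E proteins, differed by -0.19 ± 0.50, with -0.18, 1.04 and -1.45 in the 3 mice. Spi1, which encodes PU.1, differed by -0.19 ± 0.16. Nfil3, which acts early in the conventional lineage, was lower in all 3 mice at -1.11, -0.56 and -0.019 (fit -0.56 ± 0.24). None of these 5 genes had an unadjusted p under 0.05 in this fit. Nfil3 had an unadjusted p = 0.0472 with no mouse block (limma), and its difference was -0.29 without mouse 278 and -0.84 without mouse 281. With trend and robust settings Flt3 and Tcf4 had an unadjusted p = 0.0206 and 0.0249 (limma). Those settings raised the count of regulators under 0.05 from 2 to 8 of 35, while the count over all 45037 probe sets went from 2705 to 2566. The difference of Flt3 was 0.17 without mouse 279 and 0.17 after centring, and that of Tcf4 was 0.036 after centring. After quantile normalization Flt3 differed by 0.27 and Tcf4 by 0.14.

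**Figure D3:**
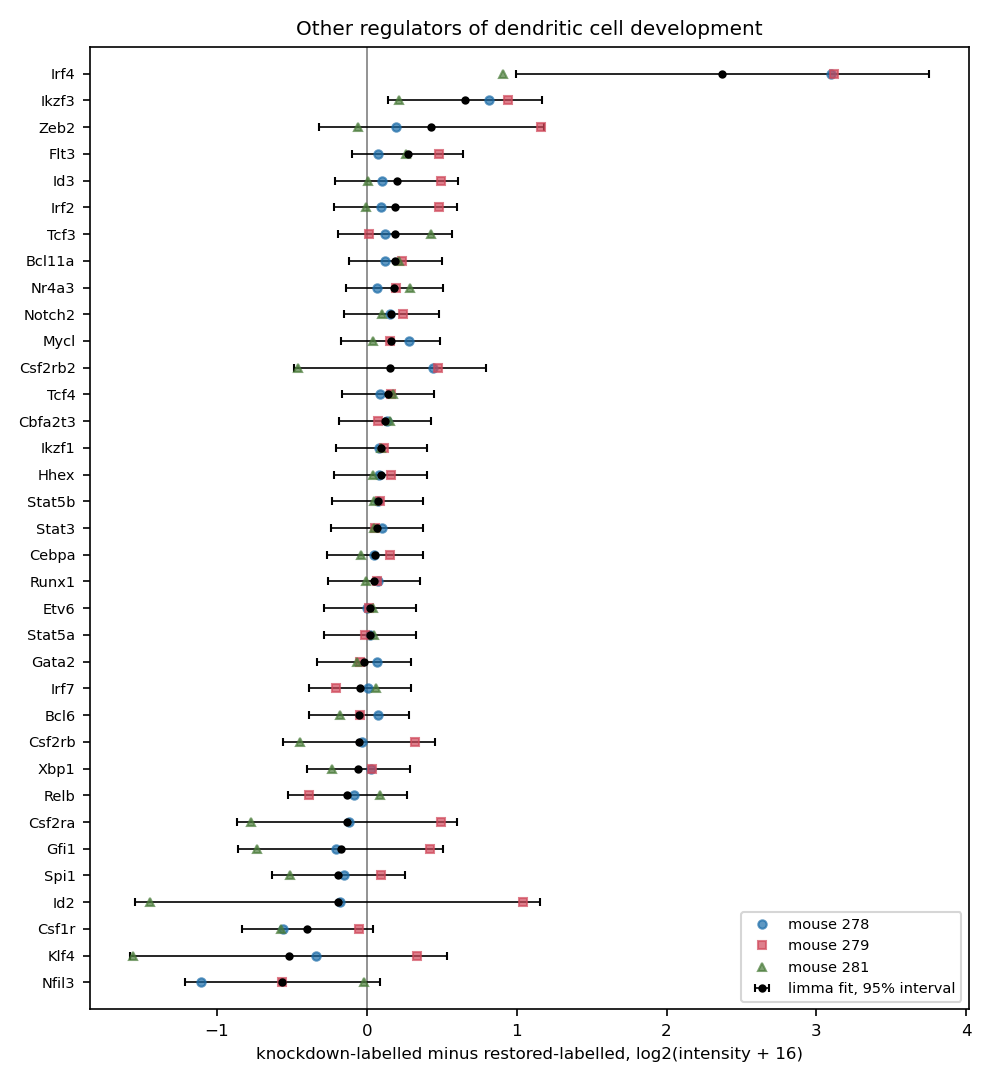
Difference of the 35 other regulators of dendritic cell development (horizontal axis, knockdown-labelled minus restored-labelled, log2(intensity + 16)), each at its brightest probe set, with the limma fit, its 95% interval and the 3 mice. Irf4 at 2.37 and Ikzf3 at 0.66 stand highest, and Id2 shows the mice on both sides of 0.

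Direct partners of the member proteins were also listed. All 12 had a probe set, and 4 were higher and 8 lower, with a median of -0.044 that was 0.049 without mouse 279. Of the 12, Irf4 alone had an unadjusted p under 0.05 (background 4.71% of all genes). Jun, whose product dimerizes with BATF3, differed by -0.80 ± 0.39, with -0.53, -0.028 and -1.86 in the 3 mice. Cbfb, the partner of RUNX factors, differed by 0.12 ± 0.12, and Tyrobp, the adaptor through which Siglec-H signals, by -0.028 ± 0.17.

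Among other genes of plasmacytoid dendritic cells, 12 of 14 had a probe set, of which 7 were higher and 5 lower with a median of 0.028. After quantile normalization 5 were higher, and after centring 4, so this direction rests on the scaling. Both genes with an unadjusted p under 0.05 were higher, against 3.07% of all genes on the higher side. The count was 1 after quantile normalization, after centring and with array weights, and 0 with 5 arrays. Ly6d, a surface gene of lymphoid and plasmacytoid precursors, gave 310.2, 86.6 and 159 in restored-labelled cells and 709, 567 and 235 in knockdown-labelled cells, a difference of 1.39 ± 0.41 (adjusted p = 0.817, limma). Ccr9, a homing receptor gene of plasmacytoid cells and thymic progenitors, gave 352, 106 and 212 against 456, 558 and 373, a difference of 1.12 ± 0.40 (adjusted p = 0.817, limma). Both differences were greatest in mouse 279, at 2.51 and 2.23, and without that mouse they were 0.84 and 0.57. Ccr9 had an unadjusted p = 0.0723 after quantile normalization and 0.0904 with array weights (limma). The other 4 probe sets of Ccr9 gave 0.50 to 1.20. Their means were 324, 89.0, 39.9 and 39.0, and those of 39.9 and 39.0 lie within the unspiked control range of 15.6 to 42.6.

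Of 21 listed genes of conventional dendritic cells and antigen presentation, 19 had a probe set, of which 14 were lower and 5 higher. The median was -0.22, and it was -0.10 without mouse 279 and -0.14 without mouse 281. In 4 genes the groups did not overlap, all with knockdown-labelled cells lower, against 4.85% of all genes: Ciita, H2-Ab1, Clec10a and Itgae. Ciita, the activator of class II antigen presentation genes, differed by -0.32 ± 0.12 and its target H2-Ab1 by -0.22 ± 0.12. The unadjusted p of Ciita was 0.0537, and it was 0.0287 after quantile normalization, 0.0342 after centring and 0.0168 with array weights (limma). It was 0.148 with trend and robust settings, 0.237 without mouse 278 and 0.206 without mouse 281 (limma). With array weights 6181 of all 45037 probe sets were under 0.05, against 2705 in the main fit. The class II genes H2-Eb1, H2-Aa and Cd74 gave -0.29, -0.24 and -0.069. One gene had an unadjusted p under 0.05 (background 4.71%). This was Ccr7, the receptor gene that guides mature dendritic cells to lymph nodes, at 148, 105 and 81.3 against 203, 249 and 124, a difference of 0.69 ± 0.19 (adjusted p = 0.817, limma). The mouse block decided which gene this was. With no block, Ccr7 had an unadjusted p = 0.0528 (limma), while Ciita, which was lower, had an unadjusted p = 0.0198 (limma). The list's count under 0.05 was 3 after quantile normalization and 3 after centring. It was 4 with trend and robust settings and 5 with array weights. Xcr1 and Cd209a, surface markers of conventional cells, had means below the median of 149, as did Ciita (103) and Itgae (62.6). Xcr1, with a mean of 47.0, was lower in all 3 mice, by -0.64 ± 0.26 in the fit (unadjusted p = 0.0642, limma). Its unadjusted p was 0.0423 after quantile normalization and 0.0248 after centring (limma). Without mouse 281 it was 0.204, and with array weights 0.195 (limma). The differences of Clec10a and Itgae came mostly from mouse 279, at -1.34 and -0.71. In mice 278 and 281 they were -0.23 and -0.012 for Clec10a, and -0.070 and -0.070 for Itgae.

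Markers of other cell types were read beside these genes, and none of them passed the adjusted threshold (limma). Of 12 B-lineage genes 9 were higher and 5 of them had an unadjusted p under 0.05, against 3.07% of all genes on the higher side. In 7 of the 12 the mean was at or above the median of 149. The 3 lower genes were Cd79b, Pax5 and Cd22, at -0.11, -0.44 and -0.22. Cd79b was lower in all 3 mice, and the means of Pax5 and Cd22 were below 149. The median difference of the 12 genes was 0.53, and it stood at 0.67, 0.44 and 0.58 in the 3 mice. Their summed intensity was 11028 to 11905 on restored-labelled arrays and 16737 to 24084 on knockdown-labelled arrays, and 1 of the 12 was at 0 on 1 array, that of restored-labelled cells of mouse 279. Mzb1, Ighm and Blnk gave 1.44 ± 0.24, 2.14 ± 0.39 and 0.93 ± 0.19, although 7 of the 10 other Ighm probe sets were lower. In 5 of these 7 the difference came mostly from mouse 279, at -7.09 to -5.99, where the restored-labelled array was high. Of 9 T and NK genes 7 were higher, with a median of 0.19 and 0 at an unadjusted p under 0.05, and the median was -0.024 without mouse 278, 0.038 without mouse 279 and 0.46 without mouse 281. Of 15 monocyte and macrophage genes 12 were lower, with a median of -0.15 that was 0.24 without mouse 281. Aif1 alone had an unadjusted p under 0.05, at -0.97 ± 0.18, against 1.64% of all genes on the lower side. Of 13 neutrophil genes 7 were higher, with a median of 0.15 that was -0.28 without mouse 279. The part of these cell types in the values of Zbtb46, Irf4, Ly6d, Ccr9 and Ccr7 was not tested.

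**Figure D4:**
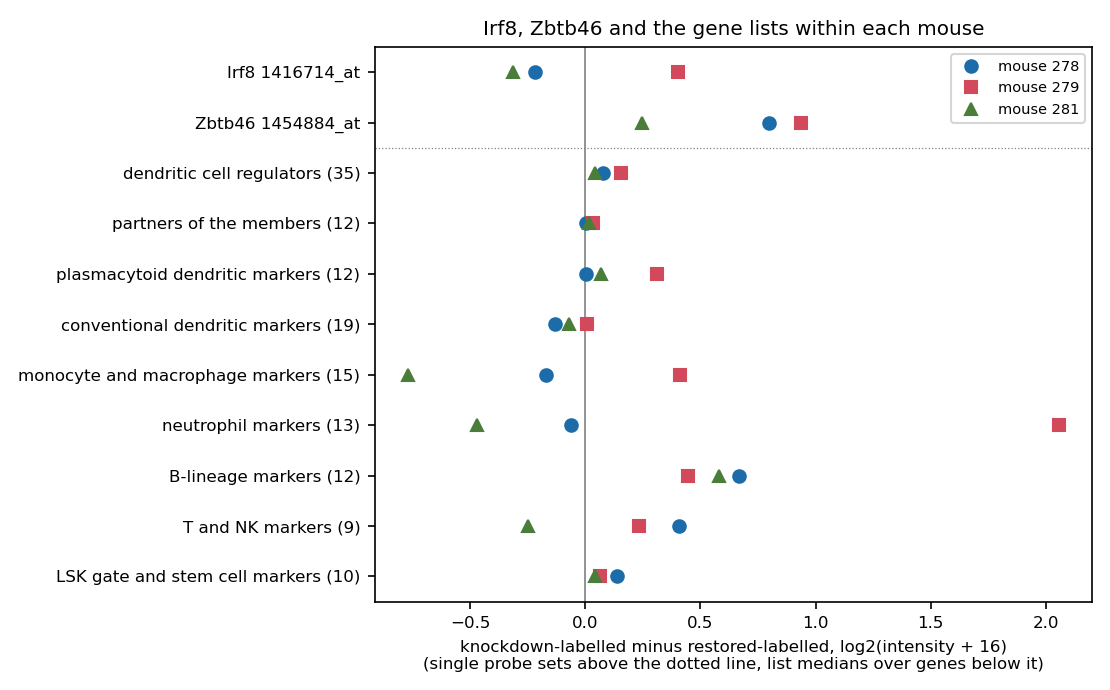
Difference within each mouse (horizontal axis, knockdown-labelled minus restored-labelled, log2(intensity + 16)) for the brightest Irf8 and Zbtb46 probe sets and, under the dotted line, the median over the genes of each list (number of genes in brackets). The median of the B-lineage markers lies above 0 in all 3 mice, at 0.44 to 0.67, and that of the neutrophil markers reaches 2.06 in mouse 279.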

How the data were processed

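Linear intensities per probe set were deposited by the authors. The labels' protocols name a Qiagen kit for RNA and NuGEN Ovation V2 for amplification; how the authors summarized and normalized the arrays is not stated in the sources read. Of 45101 probe sets, 64 controls were set aside. The probe table, whose annotation can be old, gives 1 symbol to 34945, several to 932 and none to 9160. Intensities were converted to log2(value + 16), without a filter. The limma 3.58.1 model (R 4.3.3; lmFit, eBayes) held the mouse as a block, since the labels take both populations from 1 animal, and Benjamini-Hochberg adjustment ran over all 45037 probe sets at a threshold of 0.05. A run on simulated data checked the fitted size and sign of added differences. It was not used to judge how often small differences would be called. Deviations from group means correlated between arrays of 1 mouse at 0.27, -0.077 and -0.21 (mice 278, 279 and 281). Precision is limited by the number of arrays.

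The members and the 9 other lists (146 genes, 14 without a named probe set) were chosen with earlier results of these data known. Named genes are all members, up to 3 genes of each list at unadjusted p under 0.05, and the 3 most like a member; others were chosen after their values were seen. Promoter windows are RefSeq's, and all 7 genes matched. Alternatives left out the block or made it random, left out each mouse or 1 array (restored-labelled, mouse 279), used quantile normalization, median centring, added values of 1 and 64, a filter at the median, 1 probe set per gene, trend and robust eBayes, or array weights. Figures used matplotlib 3.10.9.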

Additional observations from a re-analysis of the deposited data

How the results depend on the processing

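No member probe set passed the adjusted threshold under any of the 14 alternatives. Over all probe sets limma called 0 under 13 of them and 1 with trend and robust settings. The brightest Zbtb46 probe set was higher under all 14, at 0.52 to 0.87, with adjusted p (limma) of 0.312 or more. The count of member probe sets at unadjusted p under 0.05, which was 1, was 0 with no replicate block, with a random block and with 5 arrays, and 0 to 1 on leaving out each mouse. The pairing changed no call at the adjusted threshold. The count with the same sign in every mouse, 2 of 10, was 1 among the 5 probe sets above the median, 1 among the 3 left with 1 probe set per gene and the same filter, and 3 to 6 on leaving out each mouse, where fewer mice had to match. In the main fit 11 of the 132 genes over the 9 lists had an unadjusted p under 0.05, against 4.71% of all genes. Of these 11, 5 were B-lineage genes. The count of list genes was 17 after centring, 22 with trend and robust settings and 19 with array weights. Over all 45037 probe sets the count was 2705 in the main fit and 2747, 2566 and 6181 under these 3 alternatives. The rise of the list count with array weights thus came with a rise over all probe sets. On leaving out each mouse, Irf8 ranged from -0.27 to 0.091 (second probe set -0.29 to 0.076), Siglech from -0.33 to 0.073, Batf3 from -0.51 to 0.58 and Zbtb46 1453856_at from -0.052 to 0.38, and Irf8 was also positive without mouse 278 (0.043). Signs also turned for Batf3 with array weights (0.33) and Zbtb46 1429168_at after centring (-0.0053). The cause was not tested. Means below the median of 149 limit what Siglech, Spib, Batf3 and the 2 dimmest Zbtb46 probe sets can show.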
